A study of Mus musculus with 9 samples.

Results

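Collagen-producing cells need a set of enzymes and helper proteins that modify and trim procollagen, and 10 genes of that set were followed here in mouse hepatic stellate cells: P4ha1, P4ha2, P4ha3, P3h1, P3h2, P3h3, Crtap, Pcolce, Pcolce2 and Bmp1. They were chosen by name, through every non-control probe that the array annotation assigns to them, which gave 18 probes among 56605. Of these, 17 probes passed the filter on dim signals, and all 10 genes were tested among 23965. Hepatic stellate cells are the vitamin A-storing pericytes of the liver, which turn into collagen-secreting myofibroblasts in injury and on stiff plastic. RNA was profiled on 9 one-colour Agilent arrays, 3 per group, from C57BL/6 mice aged 10 weeks. The first group had been cultured for 7 days on a hard plate and then transfected overnight with 5 nM siRNA against Cav1, the gene of the caveolar coat protein caveolin-1. The second group had the same culture and 5 nM of a negative control siRNA. The third group was labelled quiescent and untreated, with no time of harvest given. Whether samples within a group came from separate animals or cultures is not given in the labels, and the p-values therefore cover only the spread between samples, part of which may be technical.

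Procollagen chains are hydroxylated on proline in the endoplasmic reticulum before they fold. Prolyl 4-hydroxylase, built from an alpha subunit and protein disulfide isomerase, makes the 4-hydroxyproline that keeps the triple helix stable at body temperature, while prolyl 3-hydroxylases modify a few positions only. After secretion the C-terminal propeptide of fibrillar procollagens is cut off by BMP1 and related proteinases, a step that the procollagen C-proteinase enhancers speed up and that lets fibrils assemble.

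All signals below are log2 values relative to the 75th percentile of the array's own spots, so 0 is the signal of a fairly bright spot, and levels are compared between groups for one probe only. Some probe sequences bear on the results and are shown with their mm9 positions. P4ha3, with the largest fitted rise of the 10 genes, was read by a probe at chr7:107467431-107467490 (plus strand) whose last 3 bases, in capitals, are the stop codon, and by a second at chr7:107434225-107441133 (plus strand) that spans an intron.
P4ha3 end of the coding part: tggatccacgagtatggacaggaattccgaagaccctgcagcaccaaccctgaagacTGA
P4ha3 exon junction: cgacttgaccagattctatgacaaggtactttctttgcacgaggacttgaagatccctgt

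P3h1 and P3h2 changed in opposite directions against quiescent cells, and one probe of each reads the same stretch of the related coding sequences. These probes lie at chr4:118919748-118919807 (plus strand) for P3h1 and chr16:25965935-25968858 (minus strand, across an intron) for P3h2. Capitals mark the 29 of 40 overlapping bases (72.5%) that they share in the best ungapped overlap.
P3h1: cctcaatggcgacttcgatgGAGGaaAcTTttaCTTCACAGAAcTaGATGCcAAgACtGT
P3h2: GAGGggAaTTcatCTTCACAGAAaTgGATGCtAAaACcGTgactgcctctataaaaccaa

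Bmp1 had 3 probes whose values differed in sign after Cav1 siRNA. One at chr14:70890355-70890414 (minus strand) reads the protein-coding transcript, and one at chr14:70886415-70886474 (minus strand) was designed on a transcript that RefSeq lists as non-coding.
Bmp1 coding transcript: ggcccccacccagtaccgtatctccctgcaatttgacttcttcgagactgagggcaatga
Bmp1 non-coding transcript: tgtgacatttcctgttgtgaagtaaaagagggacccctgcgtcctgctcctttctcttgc

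Cav1, the target of the siRNA, had log2 signals of -2.87, -2.89 and -3.07 in Cav1-siRNA cells, -1.34, -1.12 and -1.09 in control-siRNA cells and -4.87, -5.65 and -5.84 in quiescent cells, where it was above background on 1 array of 3. The change from control siRNA was -1.76 (SE 0.24, 3.40-fold lower), with every Cav1-siRNA array below every control-siRNA array, but it was not called over all genes (adjusted p = 0.145). With only these 2 groups in the fit the adjusted p was 0.041.

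The arrays differed in cell markers in ways that moved with the groups, and the quiescent arrays carried strong signal of other liver cell types. The summed signal of 10 hepatocyte markers, as multiples of the array's 75th percentile, was 0.199 to 0.219 in Cav1-siRNA cells, 0.202 to 0.265 in control-siRNA cells and 810 to 1030 in quiescent cells. For 8 sinusoidal endothelial markers the sum was 0.382 to 0.416 in Cav1-siRNA cells, 0.370 to 0.449 in control-siRNA cells and 331 to 528 in quiescent cells, and Cdh5 and Tek were below background on every siRNA-treated array. For 8 macrophage markers it was 6.59 to 7.50 in Cav1-siRNA cells, 8.03 to 9.19 in control-siRNA cells and 215 to 357 in quiescent cells, with Clec4f, Vsig4 and Timd4 below background on every siRNA-treated array. Every gene of these 3 lists fell in control-siRNA cells, and the part of these cell types in the changes of the 10 genes was not tested. Markers of mesothelial cells and portal fibroblasts (7 of 8 on the array) summed to 24.7 to 26.8 in Cav1-siRNA cells, 30.4 to 31.3 in control-siRNA cells and 1.12 to 1.75 in quiescent cells. Of the 7, 6 rose in control-siRNA cells, and their part was not tested either. The 6 cholangiocyte markers summed to 25 to 27.9 in Cav1-siRNA cells, 27.4 to 33.2 in control-siRNA cells and 2.11 to 6.08 in quiescent cells. Spp1, with a mean log2 signal of 4.90 in control-siRNA cells, made up most of the sums in siRNA-treated cells. Epcam and Cftr were below background on every siRNA-treated array, and Cftr on every quiescent array too. Of the 4 tested, 2 rose in control-siRNA cells (Spp1 by 3.37 the most), Krt19 fell by 3.15 and 1 was not called. Their part was not tested. The 6 markers of activated stellate cells summed to 579 to 605 in Cav1-siRNA cells, 515 to 530 in control-siRNA cells and 3.66 to 8.41 in quiescent cells. Of these, 5 rose in control-siRNA cells, and Postn, at -0.63, was not called. The part of these marker differences in the small changes between the siRNAs was not tested. Of 9 stellate cell markers 8 were above background on all 3 quiescent arrays, and the list summed to 21.9 to 22.5 in Cav1-siRNA cells, 22 to 25 in control-siRNA cells and 10.4 to 32 in quiescent cells. The remaining marker, Des, was left out of the fit for dim signal and was below background on every Cav1-siRNA array. Of the 8 tested, 2 rose in control-siRNA cells (Pdgfrb by 4.51 and Hand2 by 3.78), 4 fell (Lrat, Rgs5, Ngfr and Colec11), and Reln and Lhx2 were not called. Lrat, of the enzyme that esterifies retinol for storage, was below background there and at least 103.9-fold lower than in quiescent cells. The stellate and cholangiocyte markers named here were singled out from their lists after their values were seen.

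**Figure D1:**
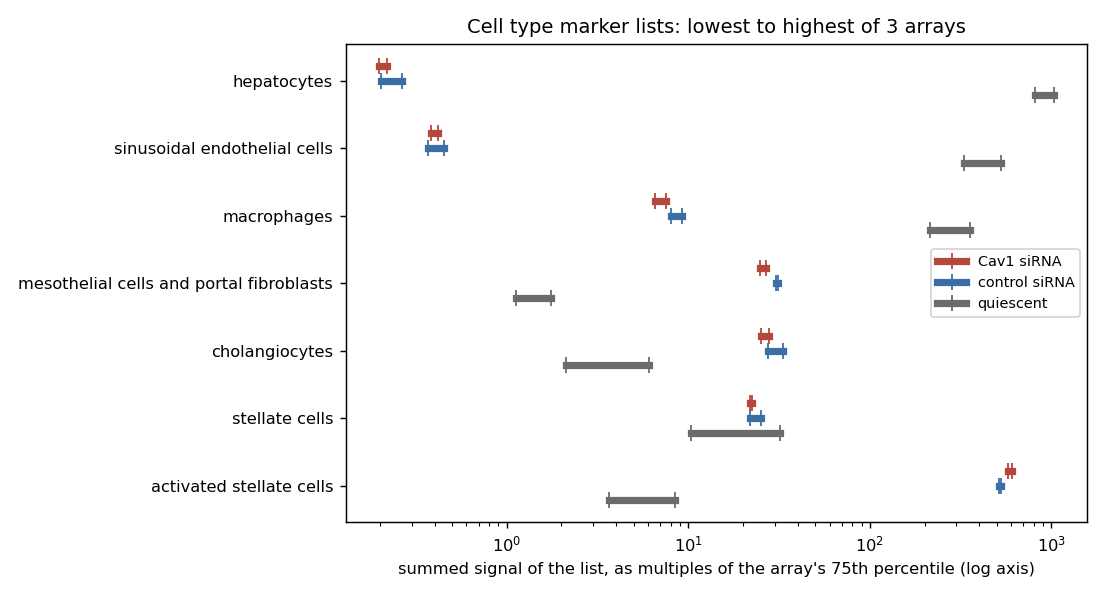
Summed signal of each marker list (horizontal log axis, in multiples of the array's 75th percentile), drawn from the lowest to the highest of 3 arrays for Cav1-siRNA, control-siRNA and quiescent cells. Hepatocyte, endothelial and macrophage lists are highest on the quiescent arrays, at 215 or more, and the activated stellate list is highest on the siRNA-treated arrays, at 515 or more.

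The first question of the design is what separates activated from quiescent cells. The activated cells had been both cultured and transfected while the quiescent cells were untreated, so culture and transfection cannot be told apart here. Of the 10 genes, 9 rose and 1, P3h2, fell in control-siRNA cells relative to quiescent cells, by limma with Benjamini-Hochberg adjustment over all genes and calls at an adjusted p under 0.05. Among all genes tested, 68.1% were called, 42.1% as higher and 26% as lower. The median log2 change of the 10 genes was 3.16, beside 0.32 for all genes. The 3 arrays of the control-siRNA group lay above all 3 quiescent arrays for the same 9 genes, a separation shown by 42.8% of all genes, and below them for P3h2, as for 27% of all genes. The Cav1-siRNA cells, set against the same quiescent arrays, had the same 9 genes higher and P3h2 lower, while 67.6% of all genes were called, 40.4% as higher and 27.2% as lower. The same genes were also separated without overlap in that comparison, as were 42.7% of all genes on the higher side and 29.1% on the lower. P4ha3 passed the dim-signal filter only through the siRNA-treated groups and P3h2 only through the quiescent group, so that their difference follows in part from the filter. The other 8 genes were above background on all 9 arrays, and all 8 rose in both comparisons.

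**Figure D2:**
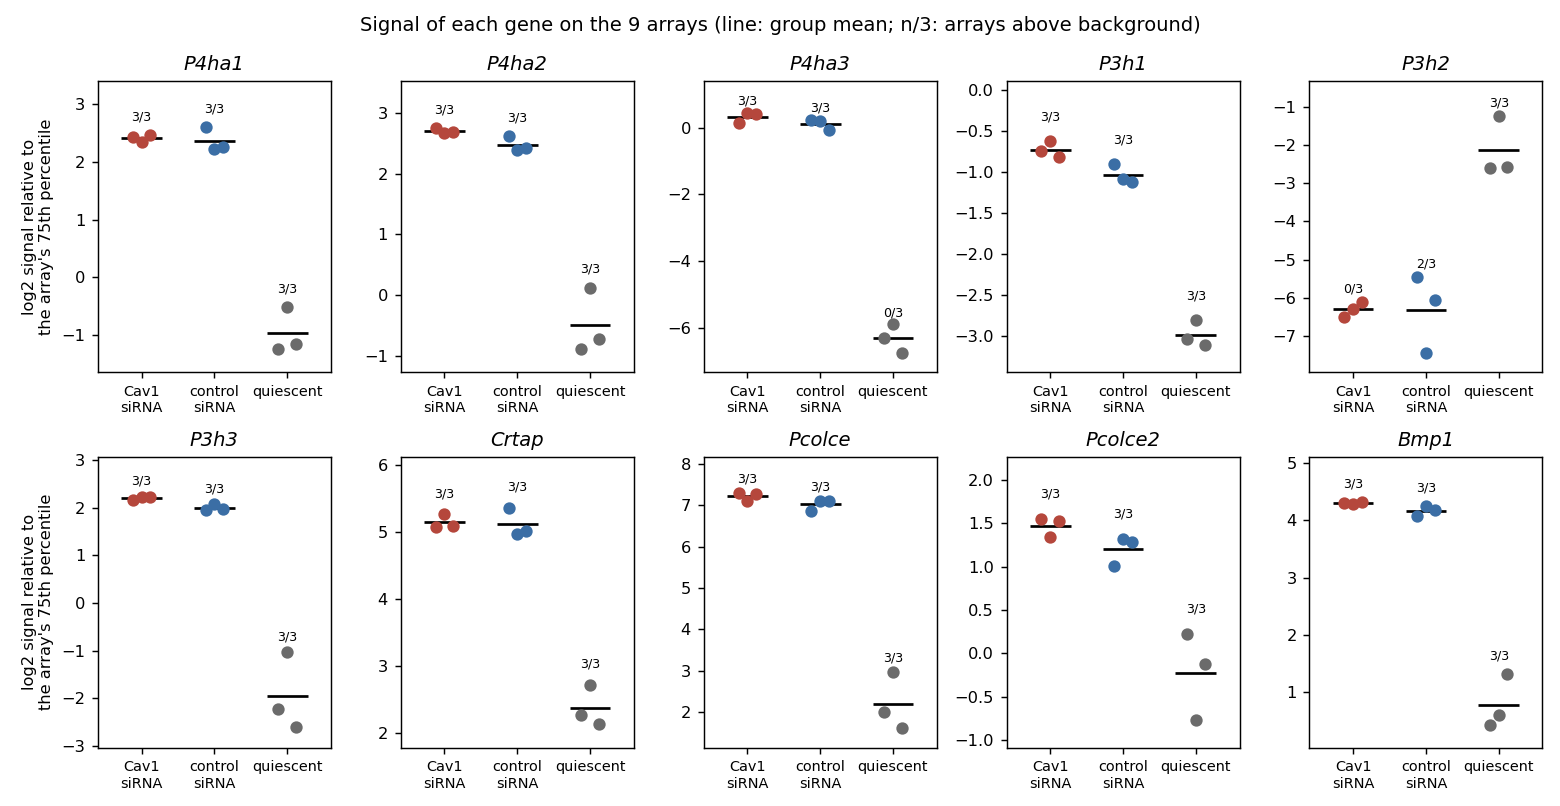
Log2 signal (vertical axes, relative to the array's 75th percentile, each gene on its own scale) of the probe used for each gene on the 9 arrays. Points are arrays, lines are group means, and n/3 counts the arrays with signal above background. In 9 panels both siRNA-treated groups lie above the quiescent arrays, and in that of P3h2 they lie below.

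The alpha subunits of prolyl 4-hydroxylase, which carry the catalytic site, all rose. P4ha1, which encodes the widely expressed alpha I subunit, had log2 signals of 2.43, 2.35 and 2.47 in Cav1-siRNA cells, 2.61, 2.22 and 2.26 in control-siRNA cells, and -1.25, -0.51 and -1.15 in quiescent cells. The groups treated with siRNA overlapped each other and lay above every quiescent array. The change in control-siRNA cells was 3.34 (SE 0.21, 10.1-fold, adjusted p = 9.38e-07). In Cav1-siRNA cells it was 3.38 (10.4-fold). A second P4ha1 probe, across an exon junction, gave 2.83 and a fold of 7.13 for control-siRNA cells.

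P4ha2 encodes the alpha II subunit. It had log2 signals of 2.75, 2.68 and 2.69 in Cav1-siRNA cells, 2.62, 2.39 and 2.42 in control-siRNA cells, and -0.89, 0.12 and -0.73 in quiescent cells. Here the 3 Cav1-siRNA arrays lay slightly above the 3 control-siRNA arrays, and both groups were far above the quiescent one. The change in control-siRNA cells was 2.98 (SE 0.24, 7.87-fold, adjusted p = 5.39e-06), and that in Cav1-siRNA cells 3.21 (9.25-fold). The other P4ha2 probe was above background on 1 array of 9, control-siRNA array 3, and was left out.

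P4ha3, the alpha III subunit gene, was not well above background on any quiescent array. Its log2 signals were 0.13, 0.44 and 0.40 in Cav1-siRNA cells and 0.24, 0.20 and -0.08 in control-siRNA cells, against values of -6.30, -5.90 and -6.77 in quiescent cells that are below background. The signal was therefore at least 34.1-fold higher in control-siRNA cells and at least 39.1-fold higher in Cav1-siRNA cells. The limma adjusted p of 2.29e-08 for control-siRNA cells belongs to the fitted change of 6.45, which uses the quiescent values below background. The bounds themselves were not tested. For these bounds the bright group's mean was set against the detection floor of each quiescent array (its dimmest probe well above background), or the probe's own signal where that was higher. The exon-junction probe printed above, which lies near the other end of the transcript, was at least 10.5-fold higher in control-siRNA cells and at least 12.1-fold higher in Cav1-siRNA cells. With another background correction that lifts dim signals (normexp with an offset of 50), the fitted change of P4ha3 was 2.99 where the main fit gave 6.45, and it was still called.

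P3h1 and Crtap encode partners of one complex, which 3-hydroxylates type I collagen together with cyclophilin B. Crtap was bright in every group, with log2 signals of 5.07, 5.26 and 5.09 in Cav1-siRNA cells, 5.36, 4.97 and 5.02 in control-siRNA cells, and 2.27, 2.72 and 2.14 in quiescent cells. Both siRNA-treated groups were above the quiescent arrays and overlapped each other. The change in control-siRNA cells was 2.74 (SE 0.19, 6.68-fold, adjusted p = 1.62e-06), and in Cav1-siRNA cells it was 2.76 (6.78-fold).

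P3h1, the catalytic partner of Crtap, had log2 signals of -0.75, -0.62 and -0.82 in Cav1-siRNA cells, -0.90, -1.09 and -1.12 in control-siRNA cells, and -3.03, -2.80 and -3.11 in quiescent cells. The 3 groups did not overlap, with Cav1-siRNA cells at the top and quiescent cells at the bottom. The change against quiescent cells was 1.94 (SE 0.14, 3.84-fold, adjusted p = 2.56e-06) in control-siRNA cells and 2.25 (4.75-fold) in Cav1-siRNA cells. With normexp and the 75th percentile, the first of these was 1.12. The P3h1 probe printed above rose by a fitted 2.20 in control-siRNA cells (SE 0.66). It was above background on quiescent array 2 only, at -2.86 beside -5.75 and -5.76 on the others.

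P3h3, a further prolyl 3-hydroxylase, had log2 signals of 2.16, 2.23 and 2.23 in Cav1-siRNA cells, 1.95, 2.08 and 1.98 in control-siRNA cells, and -2.23, -1.04 and -2.60 in quiescent cells. Its change was 3.96 in control-siRNA cells (SE 0.34, 15.6-fold, adjusted p = 6.92e-06) and 4.16 in Cav1-siRNA cells (17.9-fold). P3h4, a family member without known catalytic activity that pairs with P3h3 in mouse tissues, was named after its values were seen. It averaged 3.63 in control-siRNA cells and -2.77 in quiescent cells, a change of 6.40 (SE 0.21, adjusted p = 1.74e-08).

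P3h2 is best known for modifying basement membrane collagens such as type IV, and it was the only one of the 10 genes that fell. Its log2 signals were -6.51, -6.29 and -6.10 on the Cav1-siRNA arrays, all below background. They were -5.45, -7.43 and -6.06 in control-siRNA cells, with arrays 1 and 3 above background, and -2.61, -1.24 and -2.59 in quiescent cells. No array of an siRNA-treated group reached the lowest quiescent one. The fitted change in control-siRNA cells was -4.17 (SE 0.52, adjusted p = 9.12e-05), which rests in part on array 2, below background. The signal in Cav1-siRNA cells was at least 14.5-fold lower than in quiescent cells, a bound that was not tested. The limma adjusted p of 9.16e-05 for Cav1-siRNA cells belongs to the fitted change of -4.15, which uses their values below background. The probe printed above, at the coding stretch shared with P3h1, fell by a fitted 2.29 in control-siRNA cells (SE 0.37) and by 1.97 in Cav1-siRNA cells. It was above background on only 1 of 3 arrays in each siRNA-treated group and also passed the filter only through the quiescent group. With normexp and quantile scaling the change of P3h2 in control-siRNA cells was -1.46, and it was still called. The endothelial, hepatocyte and macrophage markers given above fell in the same cells, and their part in the fall of P3h2 was not tested. In these bulk samples, fewer cells of a type and less RNA per cell cannot be told apart.

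**Figure D3:**
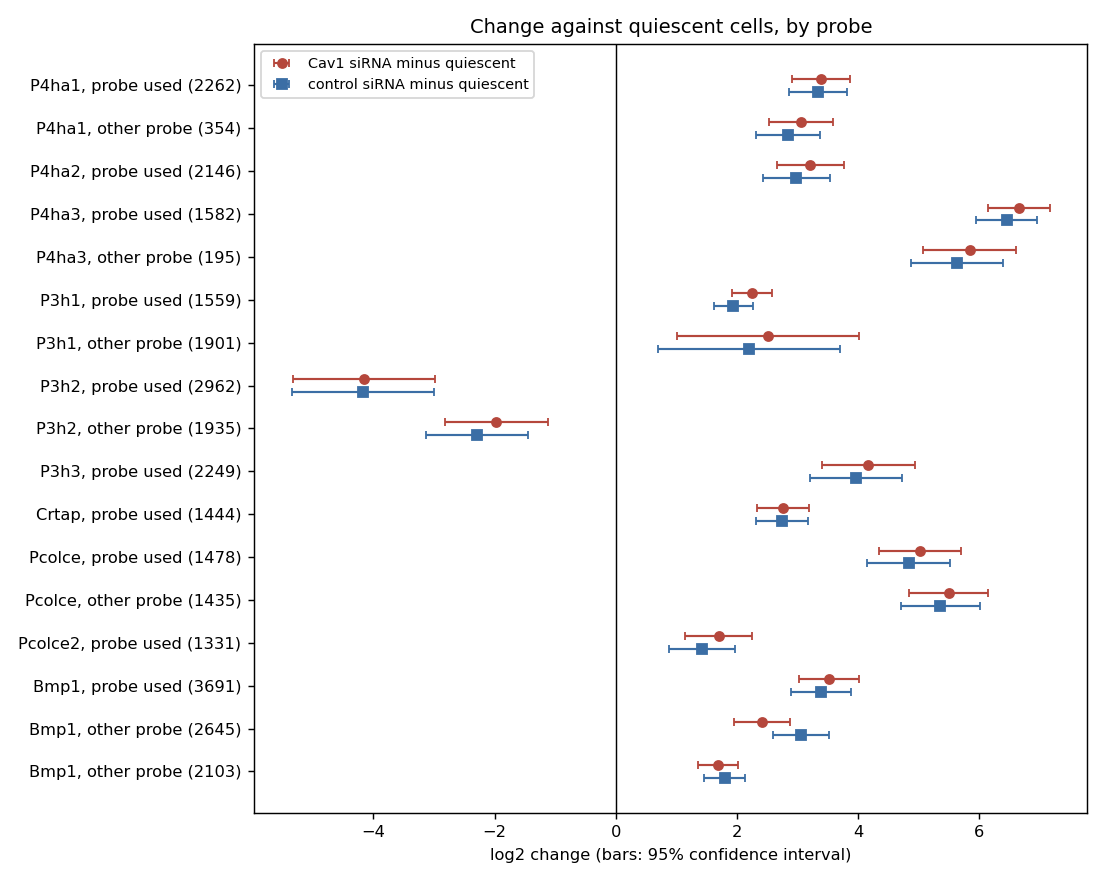
Log2 change (horizontal axis) of each of the 17 probes kept, Cav1 siRNA minus quiescent (circles) and control siRNA minus quiescent (squares), with 95% confidence intervals, numbered by position in the transcript. The P3h2 probes lie left of 0 and the other 15 right of it, and P4ha3, below background in quiescent cells, is drawn at its fitted value rather than its bound.

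The genes of C-propeptide removal rose as well. Pcolce encodes procollagen C-endopeptidase enhancer, which binds the propeptide and speeds its cleavage. It had log2 signals of 7.29, 7.10 and 7.27 in Cav1-siRNA cells, 6.87, 7.11 and 7.10 in control-siRNA cells, and 2.00, 2.96 and 1.62 in quiescent cells. The siRNA-treated arrays were all above the quiescent ones, with quiescent array 2 the highest of its group. The change in control-siRNA cells was 4.83 (SE 0.30, 28.5-fold, adjusted p = 8.09e-07), and that in Cav1-siRNA cells was 5.02 (32.5-fold). The second Pcolce probe gave 5.35 and 5.49. Each Pcolce probe was printed 10 times on an array, and these spots had an SD between 0.017 and 0.067 in log2 units, so that spot error was far below the change.

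Pcolce2, the second enhancer, rose least. Its log2 signals were 1.55, 1.34 and 1.53 in Cav1-siRNA cells, 1.01, 1.32 and 1.28 in control-siRNA cells, and 0.22, -0.77 and -0.12 in quiescent cells. The 3 groups did not overlap. The change was 1.43 in control-siRNA cells (SE 0.24, 2.69-fold, adjusted p = 6.38e-04) and 1.70 in Cav1-siRNA cells (3.24-fold). Within slide 1 its change was 1.24 and was not called (adjusted p = 0.112), in a fit where the lone control-siRNA array is assumed to vary like the 3 quiescent arrays.

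Bmp1, the gene of the C-proteinase itself, had log2 signals of 4.29, 4.28 and 4.31 in Cav1-siRNA cells, 4.08, 4.24 and 4.17 in control-siRNA cells, and 0.43, 0.60 and 1.32 in quiescent cells for the probe near the end of its coding transcript. The change was 3.38 (SE 0.22, 10.4-fold, adjusted p = 1.04e-06) in control-siRNA cells and 3.51 (11.4-fold) in Cav1-siRNA cells. The coding-transcript probe printed above also rose, by 1.79 in control-siRNA cells (SE 0.15, 3.47-fold) and 1.69 in Cav1-siRNA cells. The probe of the non-coding transcript rose by 3.05 in control-siRNA cells (SE 0.20, 8.29-fold) and 2.41 in Cav1-siRNA cells (5.31-fold). All 3 probes thus rose, with sizes that differed between probes.

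The second question is what Cav1 siRNA did to cells already in culture. None of the 10 genes was called between Cav1-siRNA and control-siRNA cells, nor was any other gene in this fit (0% of those tested, lowest adjusted p = 0.0970, with 1189 genes at an unadjusted p under 0.05 and none of the 10 among them). In the fit of single probes in these 2 groups alone, which was added after the values were seen, the unadjusted p was 0.0214 and 0.0218 for the P3h1 probes, 0.0419 for P3h3 and 0.0443 for P4ha2, and no member probe was called (limma adjusted p between 0.283 and 0.354 for these 4 probes). These 4 probes had higher values in Cav1-siRNA cells, but they were picked by their p from the member probes. The share of all 36817 probes at an unadjusted p under 0.05 in that fit was not worked out. No lean of the 10 genes is therefore read from them. The Bmp1 probe of the non-coding transcript, taken up below, had lower values in Cav1-siRNA cells, with an unadjusted limma p of 0.00111 (adjusted p = 0.131).

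The changes of the 10 genes lay between 0.01 and 0.31, all above 0, with a median of 0.20 beside -0.04 for all genes, of which 43.2% were above 0. Under other settings 7 to 10 of the 10 were above 0, the lowest count being without control-siRNA array 2. For 5 genes (P4ha2, P3h1, P3h3, Pcolce2 and Bmp1) the 3 Cav1-siRNA arrays were above all 3 control-siRNA arrays, as for 8.61% of all genes, and none of the 10 had them all below, as for 14% of all genes. P3h1 had the largest change, 0.31 (1.24-fold), with a 95% interval from -0.02 to 0.63. Pcolce2 followed at 0.27 (interval -0.28 to 0.82) and P4ha2 at 0.23 (interval -0.32 to 0.79). P3h3 and P4ha3 each changed by 0.20, with intervals from -0.57 to 0.97 for P3h3 and from -0.31 to 0.71 for P4ha3. Pcolce had a change of 0.19 (interval -0.49 to 0.87) and Bmp1 of 0.13 (interval -0.36 to 0.63). P4ha1 and Crtap were near 0, at 0.05 (interval -0.43 to 0.53) and 0.02 (interval -0.40 to 0.45). The value of P3h2, 0.01, has a wide interval, from -1.17 to 1.19, and its probe was above background on 0 of 3 Cav1-siRNA arrays and 2 of 3 control-siRNA arrays. For the probe used for each gene, the intervals of 9 genes thus ended short of a 2-fold change in either direction, and that of P3h2 did not. In the fit of single probes, some other probes had intervals that passed 2-fold. These were the other probes of P3h1 (-1.18 to 1.81) and P3h2 (-0.52 to 1.17) and the Bmp1 probe of the non-coding transcript (-1.11 to -0.18).

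**Figure D4:**
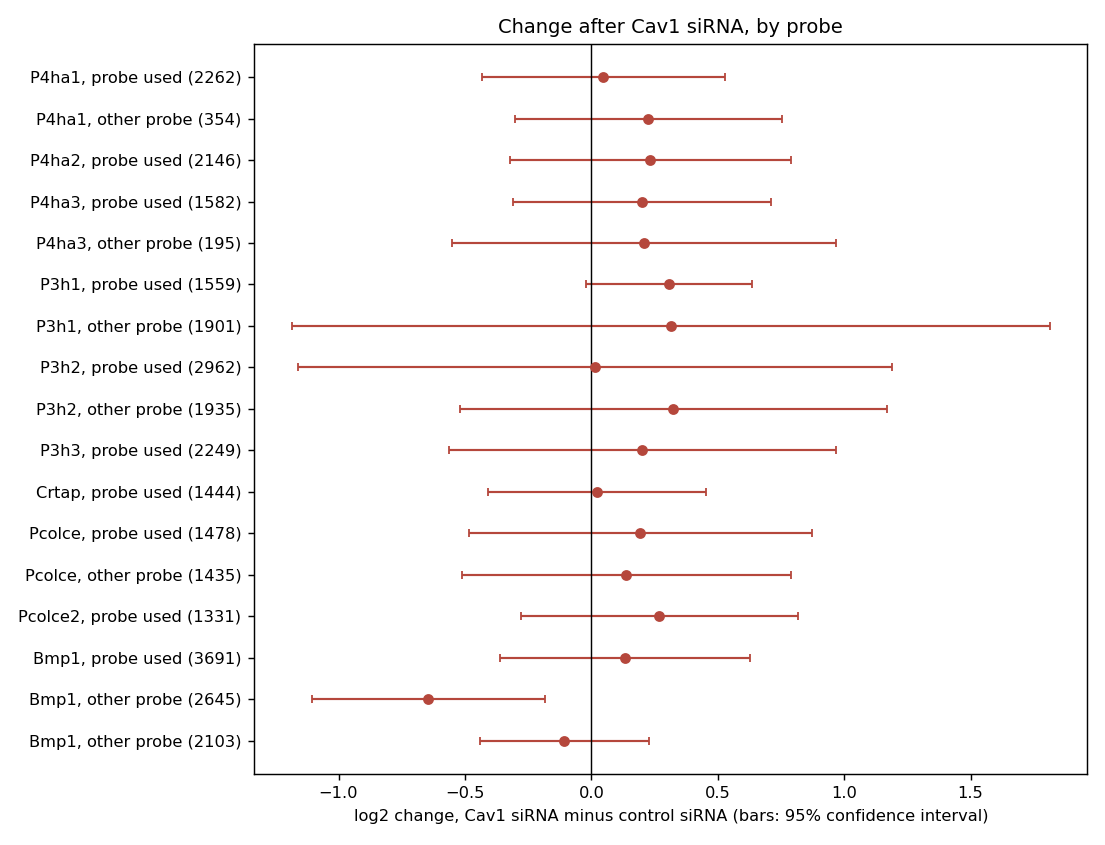
Log2 change (horizontal axis) of each of the 17 probes kept, Cav1 siRNA minus control siRNA, with 95% confidence intervals, numbered by position in the transcript. The intervals include 0 for 16 probes, and the Bmp1 probe at position 2645, of the non-coding transcript, lies at -0.64.

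The Bmp1 probe of the non-coding transcript had lower values after Cav1 siRNA, with log2 signals of 1.75, 1.78 and 1.71 in Cav1-siRNA cells and 2.59, 2.35 and 2.23 in control-siRNA cells, beside -0.73, -1.01 and -0.25 in quiescent cells. Every Cav1-siRNA array was below every control-siRNA array, as for 13% of the 36817 probes in a fit of single probes. The change was -0.64 (SE 0.20, interval -1.11 to -0.18, unadjusted p = 0.0115) and was not called (adjusted p = 0.832). In the fit of these 2 groups alone the unadjusted p was 0.00111 and the adjusted p 0.131. Within slide 2, which held all 3 Cav1-siRNA arrays and control-siRNA arrays 2 and 3, the difference was -0.54. The coding-transcript probes had changes of 0.13 and -0.11 in the same comparison.

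A companion list of 73 genes, 69 of them tested, held 54 other genes of collagen biosynthesis and its substrates and 19 genes outside it (prolyl hydroxylases with other targets, ascorbate transporters and hypoxia-responsive genes). Of the 50 collagen genes tested, 38 rose, 5 fell and 7 were not called in control-siRNA cells relative to quiescent cells, with a median of 2.07 (1.72 with genes below background at their bound), beside the 42.1% and 26% of all genes given above. Of those that rose, Tll1, Adamts3, Mep1a, Col2a1, Col11a1, Col5a2, Col11a2, Lox and Plod2 passed the dim-signal filter only through the siRNA-treated groups. Colgalt2, which fell, passed it only through the quiescent group, so that these differences follow in part from the filter. Of the 19 others, 5 rose and 10 fell, with a median of -0.69. None of the 69 was called between Cav1-siRNA and control-siRNA cells. The 4 genes left out for dim signal were Tll2, Mep1b, Col24a1 and Mstn.

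Companion genes of collagen folding and export rose in 15 of 22 cases and fell in 4. P4hb, the protein disulfide isomerase that serves as the beta subunit of prolyl 4-hydroxylase, had log2 signals of 5.50, 5.25 and 5.30 in control-siRNA cells and 3.73, 3.90 and 4.18 in quiescent cells, a change of 1.41 (SE 0.16, adjusted p = 5.52e-05). Ppib, the cyclophilin B of the P3h1 and Crtap complex, changed by 0.63 (SE 0.14, adjusted p = 0.00294). Serpinh1, the collagen chaperone HSP47, changed by 4.04, and Fkbp10, an endoplasmic reticulum prolyl isomerase, by 6.81 (SE 0.27), the largest rise of that list. Colgalt2, a collagen galactosyltransferase, was at least 8.75-fold lower in control-siRNA cells, where it was below background.

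Substrates and fellow proteinases moved with the 10 genes in part. Of 10 fibrillar procollagen chains tested, 9 rose and Col5a3 was not called. Col2a1 and Col11a1 were among those that rose and were below background on every quiescent array. Col1a1 averaged 6.89 in control-siRNA cells and 0.99 in quiescent cells, a change of 5.89 (SE 0.30). Col1a2 changed by 5.13, Col3a1 by 3.61 and Col5a2, above background on 2 of 3 quiescent arrays, by a fitted 6.88. Of 6 propeptide proteinases 5 rose, but Tll1, Adamts3 and Mep1a were below background on every quiescent array. Their direction follows in part from the filter, and in control-siRNA cells Adamts3 was at least 1.80-fold and Mep1a at least 1.11-fold higher. Tll1, which encodes a BMP1-like proteinase, was at least 21.1-fold higher in control-siRNA cells. Adamts2 and Adamts14, which remove the N-propeptide, changed by 3.68 and 2.99. Of 9 other BMP1 substrates 7 rose, with the crosslinking enzyme gene Lox at a fitted 10.02 (SE 0.54), though it was above background on only 1 of 3 quiescent arrays, and Chrd and Dcn were not called.

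**Figure D5:**
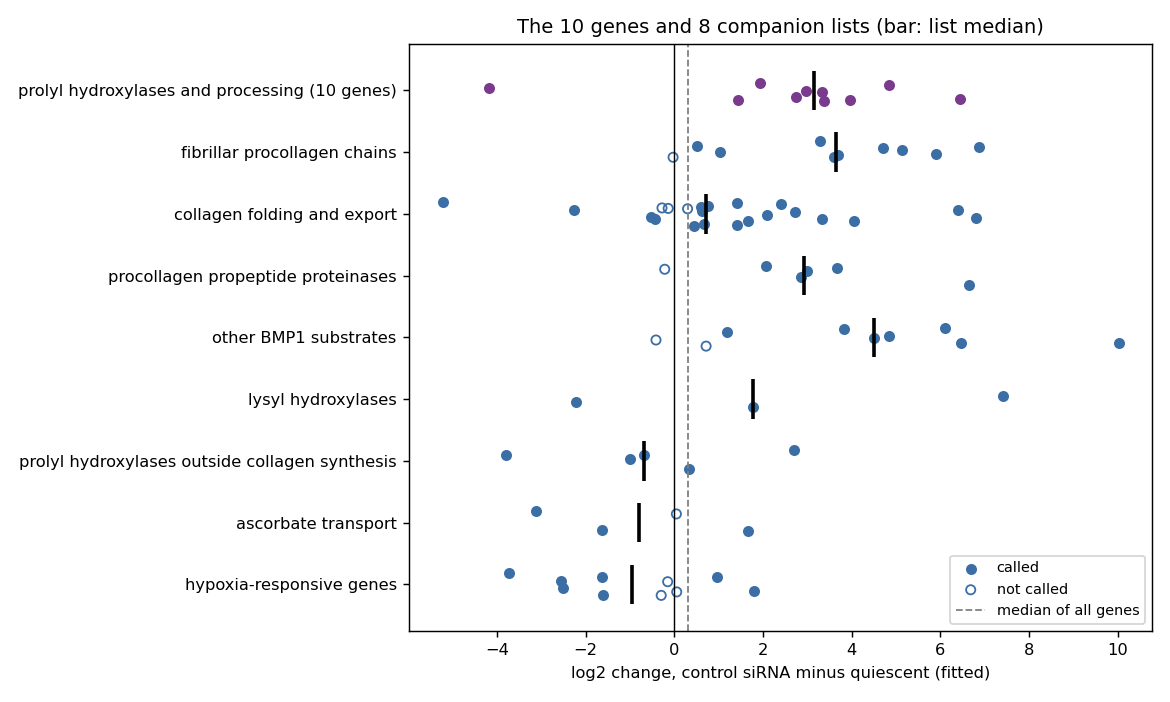
Fitted log2 change, control siRNA minus quiescent (horizontal axis), of the 10 genes and of the 69 companion genes tested, by list. Filled points were called and open ones were not, bars are list medians, and the dashed line is the median of all genes, 0.32. Fibrillar chains and other BMP1 substrates lie mostly to the right, and the hypoxia-responsive list mostly to the left.

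The lysyl hydroxylases, which act beside the prolyl hydroxylases, split. Plod2, of the enzyme that modifies the collagen telopeptides, rose by a fitted 7.42 (SE 0.26) but was above background on only 1 of 3 quiescent arrays, and Plod1 fell by 2.21. Prolyl hydroxylases that act outside collagen synthesis also split, with 2 of 5 higher and 3 lower. Among them P4htm, a transmembrane prolyl 4-hydroxylase, rose by a fitted 2.69 (above background on 2 of 3 quiescent arrays), and Egln3, of an enzyme that marks the hypoxia-inducible factors (HIF) for degradation, fell by 3.79 in control-siRNA cells. All collagen prolyl hydroxylases use ascorbate as a cofactor, and of 4 transporter genes for ascorbate or its oxidised form 1 rose (Slc2a1, 1.66) and 2 fell (Slc2a3, -3.11, had the largest fall). Of 10 genes listed as hypoxia-responsive 2 rose (Vegfa by 1.80 and Hif1a itself by 0.96) and 5 fell, with Bnip3 at -3.74. Among all genes 42.1% were called higher and 26% lower.

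P4HA1 and P4HA2 are known as targets of HIF, and their promoters are shown for that reason. RefSeq promoter windows (GRCm38.p6, the 250 bases before the start) were found for 8 of the 10 genes, with 2 starts for P3h1 and thus 9 windows, and none was listed for P3h2 and Bmp1. The HIF core, searched as ACGTG or GCGTG on both strands, occurred in 6 of the 9 windows, beside 38.6% of 32851 windows of all genes, and ACGTG can also be part of an E-box (CACGTG). It occurred 3 times each for P4ha1, P4ha2 and Crtap, 2 times in each P3h1 window, 1 time for Pcolce, and not at all for P4ha3, P3h3 and Pcolce2. The GC box GGGCGG, on both strands, was in 6 of the 9 windows, beside 32.7% of all windows. Capitals mark the HIF core on either strand at chr10:59323046-59323295 (P4ha1, plus strand) and chr11:54100674-54100923 (P4ha2, plus strand). A match describes these letters only.
P4ha1 promoter: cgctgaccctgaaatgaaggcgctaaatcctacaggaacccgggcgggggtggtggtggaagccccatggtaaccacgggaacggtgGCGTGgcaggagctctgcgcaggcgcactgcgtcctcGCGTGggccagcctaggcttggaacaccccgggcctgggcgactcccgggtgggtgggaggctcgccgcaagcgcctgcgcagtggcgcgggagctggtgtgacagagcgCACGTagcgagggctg
P4ha2 promoter: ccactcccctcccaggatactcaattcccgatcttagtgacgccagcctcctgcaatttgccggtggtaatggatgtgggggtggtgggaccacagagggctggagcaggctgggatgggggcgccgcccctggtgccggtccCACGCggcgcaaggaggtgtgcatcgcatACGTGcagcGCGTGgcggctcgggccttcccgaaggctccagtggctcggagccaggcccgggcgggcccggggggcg

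Across the 9 arrays, the profiles most like the mean standardized profile of the 10 genes were those of Bmp4 and AI115009 (Pearson r = 0.9992 each), Tjap1 and Cacna1c (0.999 each) and Cchcr1 (0.9989). These arrays fall into 2 clusters, quiescent and siRNA-treated, and share the scaling, so such values describe the gap between the clusters. An r over 0.99 was found for 1013 of 17411 genes compared.

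Quiescent array 2 had fewer probes above background than the other quiescent arrays (51.5% beside 58.4% and 58.1%), and 8 of the 10 genes had their highest quiescent signal on it, as did 33.1% of all genes. Without it, all 10 genes were still called against quiescent cells. The quiescent arrays shared slide 1 with control-siRNA array 1, and the other 5 arrays were on slide 2, so that no Cav1-siRNA array shared a slide with a quiescent one. With slide as a fixed block, all 10 genes were still called in Cav1-siRNA cells against quiescent cells, with changes from 1.41 for Pcolce2 to 6.83 for P4ha3 and -2.86 for P3h2. Within slide 1, control-siRNA array 1 minus the quiescent mean was 3.59 for P4ha1, 6.57 for P4ha3, 4.68 for Pcolce, 3.30 for Bmp1 and -3.30 for P3h2. Within slide 2, Cav1 siRNA minus control siRNA lay between 0.09 for Bmp1 and 0.45 for P3h2 over the 10 genes. The P3h2 value rests on signals below background on every Cav1-siRNA array and on control-siRNA array 2, and P3h1 followed at 0.37.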

How the data were processed

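The submitters' processing notes and the scanner files name Agilent Feature Extraction 10.7.1.1. The deposited processed signal of each spot is an intensity on a linear scale after background subtraction and detrending, not scaled between arrays, per the file headers. Here it was put on the log2 scale, the array's 75th percentile over non-control spots was subtracted, and spots of a probe were averaged without outliers. Probes stayed in the fit if a share of 0.5 or more of their spots exceeded background clearly on each of the 3 arrays of some group, and the brightest kept probe stood for its gene. Groups were compared two-sided over all 9 arrays with lmFit and eBayes of limma 3.58.1 (R 4.3.3) with Benjamini-Hochberg adjustment over 23965 genes and calls under 0.05, and the code was tested on simulated data. Python 3.11.15 with matplotlib 3.10.9 drew the figures, and data.table (version 1.17.8) read the files. No spot was saturated, and precision is limited by the number of arrays. The named genes were the 10 members with every probe, Cav1, fixed companions, the largest called rise and fall of each companion list and the 5 most similar profiles. Hif1a and companion genes that passed the filter only through the siRNA-treated or the quiescent group were named as well. Members, lists and tests were chosen with earlier results of these data known. Alternatives covered scaling, background correction, the deposited series table, the filter, the probe rule, slide and replicate blocks, array weights and leaving out arrays.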

Additional observations from a re-analysis of the deposited data

How the results depend on the processing

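Each count of the 10 genes called was recomputed under 22 to 24 alternatives. Against quiescent cells 8 to 10 were called under each alternative, for control siRNA and for Cav1 siRNA, the 8 being those left when a signal above background on all 9 arrays was required, and no called change turned its direction. Between Cav1-siRNA and control-siRNA cells 0 of the 10 were called under all 24. Leaving out 1 array at a time kept these counts at 10, 10 and 0. Of the 69 companion genes, 41 to 61 were called in control-siRNA cells and 45 to 60 in Cav1-siRNA cells against quiescent cells, and 0 between the siRNAs.

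Counts over all genes moved more. Between Cav1-siRNA and control-siRNA cells, where the main count is 0, it was 7 with normexp and the 75th percentile, 5 with normexp and quantile scaling, 6 with signal required on all 9 arrays, 656 with array weights, 5 with only the 2 groups compared, 4 genes with a called probe (5 probes) in the fit of single probes in those 2 groups, and 0 to 2 with 1 array left out, the 2 being without quiescent array 1. Against quiescent cells it was 10141 in Cav1-siRNA cells with slide as a fixed block, where the main fit gave 16210, and 7622 in control-siRNA cells within slide 1, where the main fit gave 16328. The within-slide fits and the fit of single probes in 2 groups were chosen after seeing the data. The cause of these shifts was not tested, other than that the within-slide fits use fewer arrays. Within slide 1 the lone control-siRNA array is assumed to vary like the quiescent ones.

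Deviations from the group means had correlations between -0.114 and 0.173 for same-numbered arrays of the 3 groups. For differently numbered arrays the correlations lay between -0.267 and 0.282. The labels do not say whether the numbers pair the samples, and these values cannot settle it. With the replicate number as a block, 10 of the 10 genes were still called in each comparison with quiescent cells and 0 between the siRNAs. Signal near background limits P3h2 in the siRNA-treated cells and P4ha3 in quiescent cells.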
